A study of Mus musculus with 20 samples.

Results

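The expression of 29 genes that mark lymphocytes was followed in adipocytes of Olfm2 knockout and wild-type mice. The genes were listed by symbol, with 1 probe per gene. The 26 measured members, of 19505 genes in all, comprise 12 of 12 B cell genes, 11 of 14 T cell genes and 3 of 3 genes used by both lineages. Cd27, Lck and Tcf7 were not analysed here. Olfm2 encodes olfactomedin 2, a secreted glycoprotein. Per the labels the adipocytes came from adipose tissue and were differentiated in vitro, and 20 expression arrays measured their total RNA, 5 in each of 4 groups. Genes of other cell types also gave signal on these arrays, as given below, so adipocyte is used here as the labels' name for the samples. The groups were Olfm2 knockout sc, wild-type sc, Olfm2 knockout g and wild-type g, where sc and g are the labels' names for the depots. The labels do not give the kind of Olfm2 allele, the age of the mice or whether the cultures were separate. The p-values therefore set differences only against the spread between these samples, which may not be independent. Arrays are called by their titles. The knockout sc arrays are sc300KO, sc306KO, sc317KO, sc318KO and sc320KO, and the wild-type sc arrays are sc286WT, sc287WT, sc307WT, sc308WT and sc309WT. The knockout g arrays are g300 KO and g306 KO with g317 KO, then g318 KO with g320 KO, and the wild-type g arrays are g286 WT, g287 WT, g307 WT, g308 WT and g309 WT. Values below follow these orders and are log2 signals.

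B cells detect antigen with a membrane immunoglobulin that signals through the Cd79a and Cd79b chains, and co-receptors such as Cd22 and Cr2 set the strength of the signal. T cells detect peptides with a T cell receptor that signals through the Cd3 chains and the kinase Zap70, with Cd4 or Cd8 as co-receptor. Both cell types gather in lymph nodes, where the chemokines Cxcl13, Ccl19 and Ccl21 guide cells that carry Cxcr5 or Ccr7. Adipose depots can hold lymph nodes, and lymphocytes are also scattered among fat cells.

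Olfm2 was lower on the knockout arrays of both depots. It averaged 3.22 on knockout and 4.88 on wild-type sc arrays (difference -1.66, n = 5 each; adjusted p = 0.000152 by limma and p = 0.00794 by an exact permutation test, two-sided). It averaged 3.54 on knockout and 4.34 on wild-type g arrays (difference -0.80, adjusted p = 0.00784, exact permutation p = 0.00794, n = 5 each). Control probes with no target gave medians per array between 4.45 and 4.84, so these values are dim and give no exact fold, and where the probe lies relative to the deleted part is not stated. The mean of 15 mature adipocyte genes was between 10.9 and 11.8 on all arrays.

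Lymphocyte genes stood high on 3 of the 10 sc arrays, which carry both genotypes: sc317KO, sc320KO and sc286WT. For each member the signal was set against the gene's own median over the 20 arrays, and the mean of these excesses was 2.35 on sc317KO, 2.12 on sc320KO and 2.04 on sc286WT. The next array was g309 WT with 0.92, and the remaining 16 lay between -0.54 and 0.49. Of the 26 members, all were higher on each of the 3 arrays than on any of the 7 other sc arrays, which held for 7.55% of all genes. The gap was over 1 log2 unit for 23 members, against 0.979% of all genes. For 24 members the 3 arrays also lay above all 17 other arrays, against 3.19% of all genes; the exceptions, Cd37 and Il7r, were also high on g arrays. These 3 arrays were singled out by the members' own levels, so the counts describe them and no test was made. In bulk RNA, fewer cells of a type and less RNA per cell cannot be told apart.

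**Figure D1:**
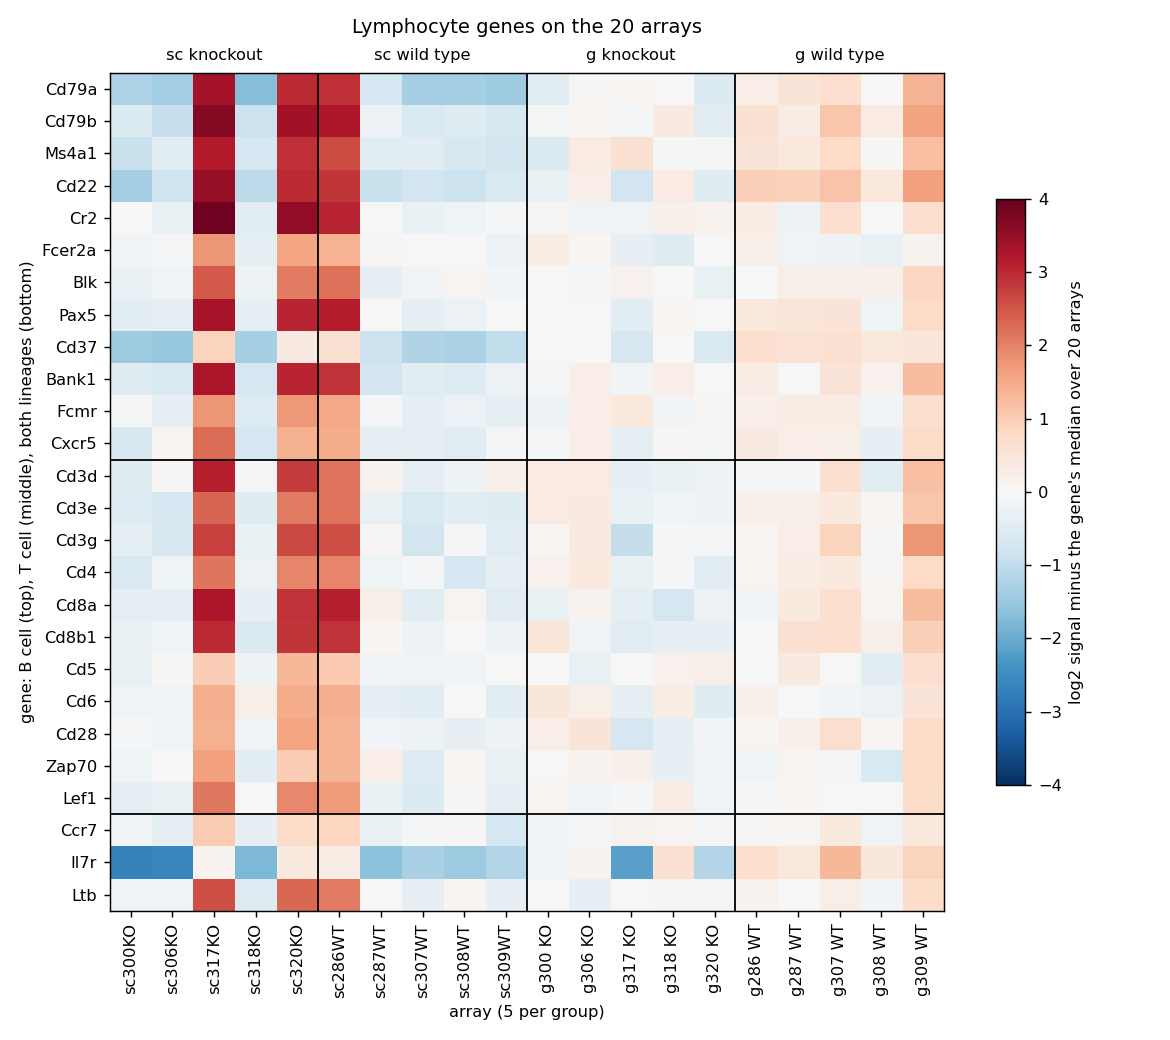
The 26 members (down) on the 20 arrays (across, 5 per group) as log2 signal minus the gene's median over the arrays, red above and blue below it. Arrays sc317KO, sc320KO and sc286WT are red for nearly every gene, g309 WT is pale red, and Cd37 and Il7r are also high on wild-type g arrays.

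The promoters of the B cell members Cd79a and Cd22 and the T cell members Cd3d and Cd3e are shown because these genes share a short motif although they belong to different lineages. Each window runs from 250 bases before to 50 bases after the annotated start (RefSeq, GRCm38.p6), read 5′ to 3′ along the gene. Capitals mark the E box CAGGTG, or CACCTG where the match lies on the other strand. E boxes are bound by proteins of the E2A family, which act in both B and T cell development.
Cd79a, chr7:24897247-24897546, plus strand: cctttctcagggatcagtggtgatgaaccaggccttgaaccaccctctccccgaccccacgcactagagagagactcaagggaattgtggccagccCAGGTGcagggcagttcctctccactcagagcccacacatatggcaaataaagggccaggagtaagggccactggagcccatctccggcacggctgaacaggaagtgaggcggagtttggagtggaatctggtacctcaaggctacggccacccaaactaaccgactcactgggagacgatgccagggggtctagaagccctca
Cd22, chr7:30878979-30879278, minus strand: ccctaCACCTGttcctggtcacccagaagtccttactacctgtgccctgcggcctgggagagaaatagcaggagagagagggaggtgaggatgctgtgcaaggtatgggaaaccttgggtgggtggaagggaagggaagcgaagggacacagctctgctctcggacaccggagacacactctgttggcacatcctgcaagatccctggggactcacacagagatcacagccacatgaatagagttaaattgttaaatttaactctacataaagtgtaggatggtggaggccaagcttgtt
Cd3d, chr9:44981536-44981835, plus strand: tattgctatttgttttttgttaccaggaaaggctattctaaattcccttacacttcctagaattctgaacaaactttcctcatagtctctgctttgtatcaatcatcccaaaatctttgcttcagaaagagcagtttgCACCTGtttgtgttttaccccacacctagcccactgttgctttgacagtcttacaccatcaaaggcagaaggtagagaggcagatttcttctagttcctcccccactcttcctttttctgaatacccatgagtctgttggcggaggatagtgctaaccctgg
Cd3e, chr9:45009562-45009861, minus strand: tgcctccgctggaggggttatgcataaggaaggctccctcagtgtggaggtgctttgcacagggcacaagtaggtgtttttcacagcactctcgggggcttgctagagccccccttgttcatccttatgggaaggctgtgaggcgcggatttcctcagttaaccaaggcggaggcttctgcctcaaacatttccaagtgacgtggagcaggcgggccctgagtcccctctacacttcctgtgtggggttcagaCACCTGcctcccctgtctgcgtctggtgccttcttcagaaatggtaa

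Of the 26 members 17 had such a window. The E box was found on either strand in 14 of the 17, against 22.6% of 27025 genes: 7 of 8 B cell members, 6 of 7 T cell members and 1 of 2 shared members. The ETS motif ACTTCCT was found in 7 members (10.7% of genes), the EBF motif CCCNNGGG in 3 (15.4%) and a longer form in 1 (1.06%). The RUNX motif TGTGGT was found in 3 (18.9%) and its longer form TGTGGTT in 1 (6.09%). The GATA motif AGATAA was found in 2 (12.7%), the PU.1 motif GAGGAAG in 4 (15.4%) and an NF-kB motif in 1 (0.174%). The octamer ATTTGCAT (1.97% of genes) and the TCF or LEF motif CTTTGAA (5.93%) were found in 0. These 11 motifs were searched on both strands after the values were known, longer forms contain the shorter ones, and the ETS and PU.1 motifs share 6 letters when read on opposite strands. A match is a description of letters and not of binding. Cd3g, Cd3d and Cd3e lie next to each other on chromosome 9 with 0 coding genes between neighbours, and the same holds for Cd8b1 and Cd8a and for Cd5 and Cd6, so these members share a locus.

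Among the B cell members the receptor chain Cd79a had 5.75, 5.61, 10.3, 5.29 and 9.97 on knockout sc arrays, against 9.90, 6.29, 5.67, 5.64 and 5.58 on wild-type sc arrays. It had 6.57, 7.03, 7.06, 6.99 and 6.45 on knockout g arrays, against 7.24, 7.50, 7.66, 6.98 and 8.35 on wild-type g arrays. The 3 high sc arrays exceeded every g array, while the other sc arrays lay below every g array. Ms4a1, the CD20 antigen of mature B cells, had 3.95, 4.39, 8.02, 4.13 and 7.75 on knockout sc arrays, against 7.44, 4.38, 4.38, 4.19 and 4.09 on wild-type sc arrays. It had 4.30, 5.15, 5.45, 4.77 and 4.79 on knockout g arrays, against 5.35, 5.25, 5.64, 4.89 and 6.03 on wild-type g arrays. The genotypes overlapped in both depots, as they did for Cd79a.

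Cd22, an inhibitory co-receptor, had 4.63, 5.17, 9.46, 4.92 and 8.96 on knockout sc arrays, against 8.82, 5.07, 5.22, 5.10 and 5.36 on wild-type sc arrays. It had 5.70, 6.23, 5.19, 6.30 and 5.50 on knockout g arrays, against 6.91, 6.90, 7.12, 6.38 and 7.60 on wild-type g arrays. Every knockout g array lay below every wild-type g array. Cd37, a tetraspanin of B cells that other leukocytes also carry, had 8.31, 8.23, 10.6, 8.41 and 10.1 on knockout sc arrays, against 10.4, 8.91, 8.52, 8.49 and 8.76 on wild-type sc arrays. It had 9.77, 9.77, 9.09, 9.72 and 9.12 on knockout g arrays, against 10.4, 10.3, 10.4, 10.1 and 10.2 on wild-type g arrays. For Cd37, too, the genotypes did not overlap in g.

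The other 8 B cell members were the second receptor chain Cd79b, the complement receptor Cr2, the low-affinity IgE receptor Fcer2a, the kinase Blk, the lineage transcription factor Pax5, the adaptor Bank1, the IgM receptor Fcmr and the follicle-homing receptor Cxcr5. On sc317KO, sc320KO and sc286WT their signals were between 6.59 (Cxcr5) and 9.48 (Cd79b). For the B cell members the gap between the lowest of the 3 and the highest other sc array ran from 1.18 for Cd37 to 3.61 for Cd79a, with a median of 3.04, beside a median over all genes of -0.45. Pax5 and Cr2 had gaps of 3.02 and 3.06, and Fcer2a and Cxcr5 gaps of 1.34 and 1.32.

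Among the T cell members Cd3e, a signalling chain of the T cell receptor, had 6.15, 5.99, 8.98, 6.17 and 8.74 on knockout sc arrays, against 8.83, 6.37, 6.06, 6.20 and 6.17 on wild-type sc arrays. It had 7.0, 7.01, 6.36, 6.54 and 6.45 on knockout g arrays, against 6.89, 6.89, 7.07, 6.78 and 7.78 on wild-type g arrays. The genotypes overlapped in each depot. Cd8a, the co-receptor of cytotoxic T cells, had 5.28, 5.29, 8.88, 5.32 and 8.54 on knockout sc arrays, against 8.73, 5.88, 5.19, 5.74 and 5.20 on wild-type sc arrays. It had 5.37, 5.78, 5.25, 4.96 and 5.39 on knockout g arrays, against 5.53, 6.02, 6.26, 5.76 and 6.89 on wild-type g arrays. Only g306 KO, at 5.78, reached into the wild-type range of g.

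The other 9 T cell members were the receptor chains Cd3d and Cd3g, the co-receptors Cd4 and Cd8b1, the surface glycoproteins Cd5 and Cd6, the costimulatory receptor Cd28, the kinase Zap70 and the transcription factor Lef1. The gaps of the T cell members ran from 0.75 for Zap70 to 2.78 for Cd8b1, with a median of 1.93. Cd8b1 and Cd8a had the widest gaps, Cd4 had 1.97, and Cd5 and Zap70 were the members with gaps under 1. No T cell member was below the median of the negative control probes on the 3 arrays.

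Of the genes of both lineages Ccr7, the receptor that brings lymphocytes into nodes, had 6.91, 6.64, 8.05, 6.69 and 7.76 on knockout sc arrays, against 7.89, 6.77, 6.98, 7.08 and 6.32 on wild-type sc arrays. It had 6.91, 7.0, 7.18, 7.13 and 6.97 on knockout g arrays, against 7.07, 7.14, 7.42, 6.89 and 7.44 on wild-type g arrays. Its gap, 0.68, was the narrowest of the 26. Ltb, the membrane lymphotoxin that maintains lymphoid tissue, had 5.99, 5.98, 8.71, 5.62 and 8.45 on knockout sc arrays, against 8.19, 6.12, 5.80, 6.20 and 5.82 on wild-type sc arrays. It had 6.12, 5.83, 6.17, 6.08 and 6.17 on knockout g arrays, against 6.27, 6.16, 6.36, 6.02 and 6.86 on wild-type g arrays. Apart from the 3 arrays Ltb lay between 5.62 on sc318KO and 6.86 on g309 WT. Il7r, the receptor of the survival cytokine interleukin 7, had 5.51, 5.60, 8.36, 6.43 and 8.62 on knockout sc arrays, against 8.52, 6.56, 6.92, 6.76 and 7.04 on wild-type sc arrays. It had 8.07, 8.35, 6.04, 8.81 and 7.04 on knockout g arrays, against 8.88, 8.63, 9.55, 8.66 and 9.09 on wild-type g arrays. Its 3 highest values were on wild-type g arrays, unlike those of Ltb and Ccr7, which were on the 3 high sc arrays.

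The listed B cell members stood further above their own medians than the listed T cell members on each of the 3 arrays, while further genes of the lineages did not show this order throughout. The mean excess of the 12 B cell members was 2.77 on sc317KO, 2.42 on sc320KO and 2.33 on sc286WT, and that of the 11 T cell members was 2.19, 2.05 and 1.98 in the same order. The B minus T difference was thus 0.58, 0.37 and 0.35. On g309 WT the excess was 0.94 for B and 0.96 for T cell members. Array sc317KO was the highest of the 3 for 22 of 26 members, including 12 of 12 B cell genes, and sc320KO for the other 4. Of the further lists, 12 other B cell genes had an excess of 1.85 on sc317KO, 1.47 on sc320KO and 1.60 on sc286WT, and 13 other T cell genes 1.74, 1.69 and 1.69, so that T was above B on sc320KO and sc286WT. The order of B and T thus depended on the genes listed. An excess depends on how dim a probe is elsewhere, so these differences do not give a ratio of B to T cells.

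**Figure D2:**
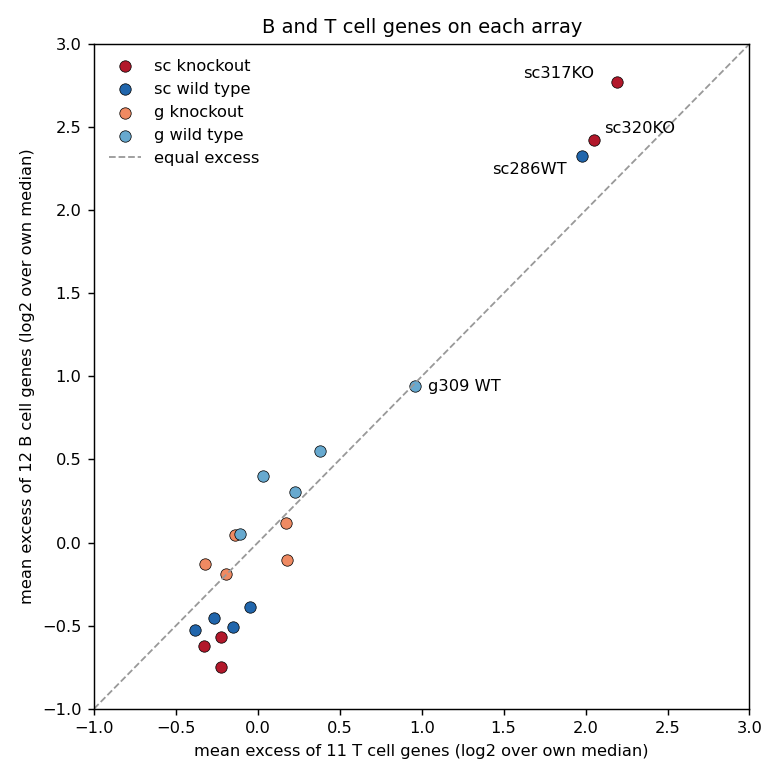
Mean excess over the own median of the 12 B cell members (vertical, log2) against that of the 11 T cell members (horizontal, log2), 1 point per array, coloured by group. Arrays sc317KO, sc320KO and sc286WT sit at the top right and above the line of equal excess, and g309 WT lies near the line at 0.94 and 0.96.

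Genes outside the list that lymph nodes express were uneven on the 3 arrays. Of 11 measured genes of lymph node stroma and high endothelial venules, 6 were above all 17 other arrays on each of the 3, against 3.19% of all genes. Glycam1, a ligand made by high endothelial venules, had 7.57 on sc317KO, 7.53 on sc320KO and 6.85 on sc286WT, against 3.61 to 4.09 elsewhere. The T zone chemokine Ccl21a had 10.4, 10.7 and 10.4 on these arrays, against 6.18 to 7.21 on other sc arrays and 7.57 to 9.26 on g arrays. The B cell follicle chemokine Cxcl13 had 10.8, 10.2 and 9.99, against at most 7.85 on other sc arrays and 9.20 on g arrays, and Ccl19 had 7.40, 6.77 and 7.36, against at most 5.96 elsewhere. Madcam1, an addressin of mucosal tissue, had 4.94, 5.03 and 5.09, against at most 4.90 elsewhere, a far narrower gap. Il7 had a narrow gap too, with 6.08 to 6.24 on the 3 arrays against at most 6.04 elsewhere. Chst4, Fut7, Coch, Clec4g and Tnfsf11 of the same list did not stand above the other arrays. Fut7 had 6.33, 6.17 and 5.50 on the 3 arrays, against 5.62 to 6.29 on other sc arrays. Of 7 early thymocyte and precursor B cell genes 0 had the 3 arrays above the other sc arrays: Rag2, of antigen receptor recombination, had 4.56, 3.88 and 4.16 there, against 3.98 to 4.76 on other sc arrays. Of the spleen red pulp and erythroid list 1 of 6 did, Spic, a factor of red pulp macrophages (6.98, 6.56 and 6.84, against at most 5.19 on other sc arrays). Of all genes 7.55% had the 3 arrays above the other sc arrays.

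**Figure D3:**
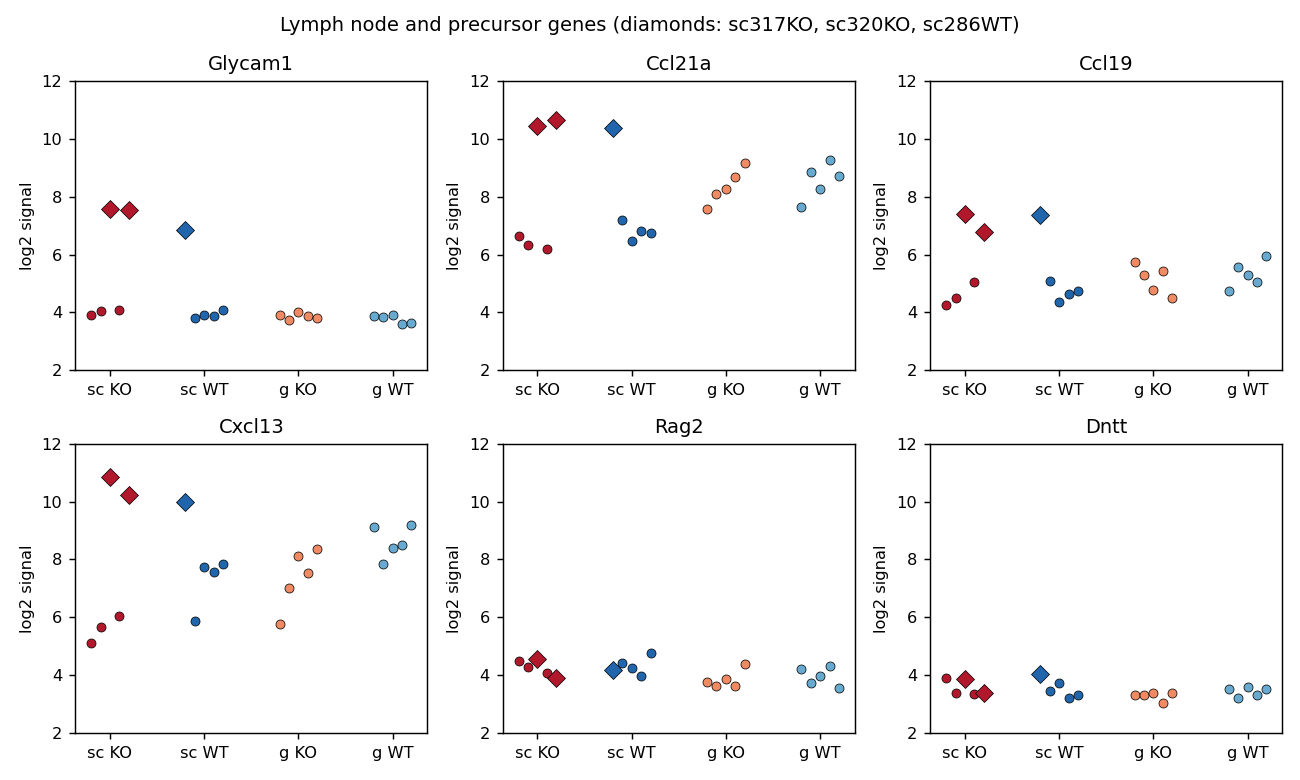
Log2 signal (vertical) of 4 lymph node genes (Glycam1, Ccl21a, Ccl19, Cxcl13) and 2 genes of lymphocyte precursors (Rag2, Dntt) by group, 1 point per array, diamonds for sc317KO, sc320KO and sc286WT. The diamonds lie above all other points for these 4 lymph node genes, taken from a list of 11 of which 6 showed this. They lie among the other points for Rag2. For Dntt they run from 3.37 to 4.04 and overlap the others.

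Other lymphocyte genes showed the pattern as well: 12 of 12 further B cell genes and 13 of 13 further T cell genes had the 3 arrays above the other sc arrays. Fewer did so among plasma cell and immunoglobulin genes (2 of 6), germinal centre genes (1 of 6) and natural killer and cytotoxic genes (5 of 10), beside 7.55% of all genes. None of 13 macrophage, 9 endothelial or 12 skeletal muscle genes did. Skeletal muscle genes nevertheless stood above their own medians by 2.49 on sc317KO, 1.80 on sc320KO and 4.86 on sc286WT, and by 3.25 on sc307WT, which had a lymphocyte excess of -0.47. The mean of the mature adipocyte genes was between 11.4 and 11.6 on the 3 arrays and between 11.6 and 11.8 on the other sc arrays. The part of other tissues in the lymphocyte signal was not tested.

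The 15 genes most like the members, by Pearson's r over the 20 arrays with the members' mean excess, ran from H2-Ob, an antigen presentation gene of B cells, with 0.990 to the Fc receptor-like Fcrl1 with 0.974. Between them were the lymphocyte transcription factor Ikzf3, the inhibitory receptor Btla, Ms4a4c, Ly6d, Ifi209, the T cell adaptor Grap2, Gpr174, Ralgps2, B3gnt5, the activation marker Cd69, the cytokine receptor Il21r, Clec2i and Slamf6. H2-Ob had 9.98, 9.53 and 9.63 on sc317KO, sc320KO and sc286WT, against at most 7.82 elsewhere. All r values include the 3 high arrays and are given as a description.

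Between knockout and wild-type sc adipocytes, 0 of the 26 members were called by limma (adjusted p under 0.05, Benjamini-Hochberg over all genes; 0.677% of all genes passed), and 0 had an unadjusted p under 0.05. The median difference was 0.61 over B and 0.50 over T cell members, beside 0.01 over all genes. The differences ran from -0.26 for Il7r to 0.85 for Cr2, and that of Cd79a was 0.77 (SE 0.91). With 2 high arrays among the knockout and 1 among the wild-type sc arrays, Cd79a averaged 7.38 ± 2.52 on knockout and 6.61 ± 1.86 on wild-type sc arrays (SD, n = 5 each). Without the 3 arrays 23 of the 26 differences were below 0, with medians of -0.13 for B and -0.08 for T cell members; 0 were called (0.477% of all genes) and 1 had an unadjusted p under 0.05, Cd37 (-0.35, SE 0.17).

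In g, where none of the 3 arrays belongs, all 26 members had a lower mean on knockout than on wild-type arrays. The median difference was -0.42 over B and -0.38 over T cell members, beside 0.02 over all genes. Cd22 and Cd37 were the 2 members whose genotypes did not overlap, against 10.4% of all genes. In the fit of all 20 arrays 0 members were called (11.3% of all genes) and 1, Il7r, had an unadjusted p under 0.05 (-1.30, SE 0.59). That fit takes its spread for each gene from sc arrays too, so that Cd22 had an SE of 0.84. With only the g arrays in the fit 2 members fell (5.72% of all genes fell, and 10.0% were called in either direction). Cd22 averaged 5.78 ± 0.48 on knockout and 6.98 ± 0.44 on wild-type g arrays (SD, n = 5 each; difference -1.20, SE 0.25, limma adjusted p = 0.0121). Cd37 averaged 9.49 ± 0.35 on knockout and 10.3 ± 0.11 on wild-type g arrays (difference -0.80, SE 0.15, adjusted p = 0.00896). Another 8 members had an unadjusted p under 0.05 in that fit.

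Without the 3 arrays, in a fit that keeps the other sc arrays, 8 members passed the threshold on the lower side in knockout g. Of all genes 8.38% did, and 15.1% passed in either direction. They were the B cell members Cd79a (-0.73, adjusted p = 0.0294), Cd79b (-0.82, adjusted p = 0.0134), Cd22 (-1.20, adjusted p = 0.00139), Pax5 (-0.48, adjusted p = 0.0348) and Cd37 (-0.80, adjusted p = 0.00103), the T cell members Cd8a (-0.74, adjusted p = 0.0262) and Cd8b1 (-0.63, adjusted p = 0.0249), and Il7r (-1.30, adjusted p = 0.0297). The g arrays and the differences are the same as before, and only the estimated spread is smaller. Leaving out arrays by the members' own levels lowers the spread of these genes. The count of 8 and the adjusted p-values of this fit are therefore no test of the members. That count was 5 without g317 KO, 4 without g320 KO, 3 without g307 WT and 3 without g309 WT. Genes of other cell types moved with this comparison too, in the fit of all arrays, where 11.3% of all genes were called in either direction. Of 13 macrophage genes 11 were called lower and 1 higher in knockout g, and their mean was 8.68 to 9.30 on knockout and 9.54 to 10.1 on wild-type g arrays. Of 9 mast cell genes 9 were called lower (median -1.70), and of 15 mature adipocyte genes 9 were called higher and 0 lower (median 0.45). Of 16 hepatocyte genes 0 were called, with a median of 1.81. Their mean excess over own medians was 3.38 on g306 KO, 4.10 on g317 KO, 1.59 on g318 KO and 3.02 on g320 KO. It was 1.79 on g286 WT and 2.82 on g308 WT, and between -0.62 and -0.17 on the other g arrays. Of 12 further B cell genes 3 fell in the fit of all arrays, the inhibitory receptor Cd72 (-2.0), the adaptor Blnk (-1.24) and Cd180 (-1.55), and of 13 further T cell genes 0 did. Unlike most members, these 3 were higher on every wild-type g array than on the 3 high sc arrays. Cd180 had 10.8 to 11.2 against 9.49 to 9.78, Cd72 9.43 to 9.94 against 8.81 to 8.98, and Blnk 8.79 to 9.40 against 7.82 to 8.14. Whether their fall reflects B cells was not tested. Without the 3 arrays 4 of the 12 further B cell genes were called lower, Pou2af1 being the fourth (-0.71, adjusted p = 0.0194). So were 3 of the 13 further T cell genes, Themis (-0.97, adjusted p = 0.00362), Lat (-0.34, adjusted p = 0.0292) and Cd96 (-0.69, adjusted p = 0.0257). Both lists were also high on the 3 arrays, so the same limit holds for them. The part of these other cell types in the members' differences was not tested.

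Within g, g309 WT was the highest array for 22 of 26 members, 11 of 11 T and 9 of 12 B cell genes, and g317 KO the lowest for 10. Cd79b reached 7.41 and Cd3g 7.04 on g309 WT.

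In the test of the difference in knockout effect between depots 0 members passed (0.0769% of all genes), with 0 at an unadjusted p under 0.05. The median of the sc effect minus the g effect was 1.04 over B and 0.88 over T cell members with all arrays, and 0.25 and 0.35 without the 3 arrays, where 0 were called (0.0154% of all genes) and 1, Cd22, had an unadjusted p under 0.05 (0.91, SE 0.34).

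The comparison of sc with g adipocytes turned on the 3 arrays. They were picked by the members' own high values, so leaving them out lowers both the sc means and the spread of these genes and by itself moves the differences down; differences without them describe the remaining arrays, and the counts past the threshold are no test of the members. In knockout mice 0 members were called (4.13% of all genes; 0 at an unadjusted p under 0.05), with medians of 0.79 for B and 0.66 for T cell members and 24 of 26 differences above 0. Without the 3 arrays all 26 were below 0, with medians of -0.54 and -0.18. There 3 members passed the threshold on the lower side (2.30% of all genes did, and 3.53% passed in either direction): Cd79a (-1.27, SE 0.25), Cd37 (-1.18, SE 0.16) and Il7r (-1.82, SE 0.44).

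In wild-type mice 2 members fell in sc with all arrays (9.30% of all genes fell, and 17.8% were called in either direction). Cd37 averaged 9.01 ± 0.78 on sc and 10.3 ± 0.11 on g arrays (SD, n = 5 each; difference -1.28, SE 0.41, adjusted p = 0.0350). Il7r averaged 7.16 ± 0.78 on sc and 8.96 ± 0.38 on g arrays (difference -1.80, SE 0.59, adjusted p = 0.0383), and was the 1 member whose depots did not overlap, against 16.1% of all genes. Both calls ended with a trended, robust spread estimate and without 8 arrays with high hepatocyte genes. Leaving out 1 of the 10 wild-type arrays in turn ended the call of Cd37 in 9 cases and that of Il7r in 8, as without sc287WT (Cd37 -1.26, adjusted p = 0.0665; Il7r -1.65, adjusted p = 0.0888). Without the 3 arrays, of which sc286WT is the wild-type one, the medians were -0.75 for B and -0.57 for T cell members, beside -0.24 and -0.03 with all arrays. On the remaining arrays 15 members passed the threshold on the lower side (11.3% of all genes did, and 22.6% passed in either direction): 10 of 12 B cell genes, all but Cr2 and Fcer2a, the T cell genes Cd3e, Cd4, Cd8b1 and Cd28, and Il7r. Among them were Cd22 (-1.79, SE 0.23), Cd79a (-1.75, SE 0.23) and Cd3e (-0.88, SE 0.18). With all arrays 12 of 13 macrophage genes (means of 8.23 to 8.56 on sc and 9.54 to 10.1 on g arrays) and 8 of 9 mast cell genes were called lower in wild-type sc, and 12 of 15 mature adipocyte genes higher. Their part was not tested.

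**Figure D4:**
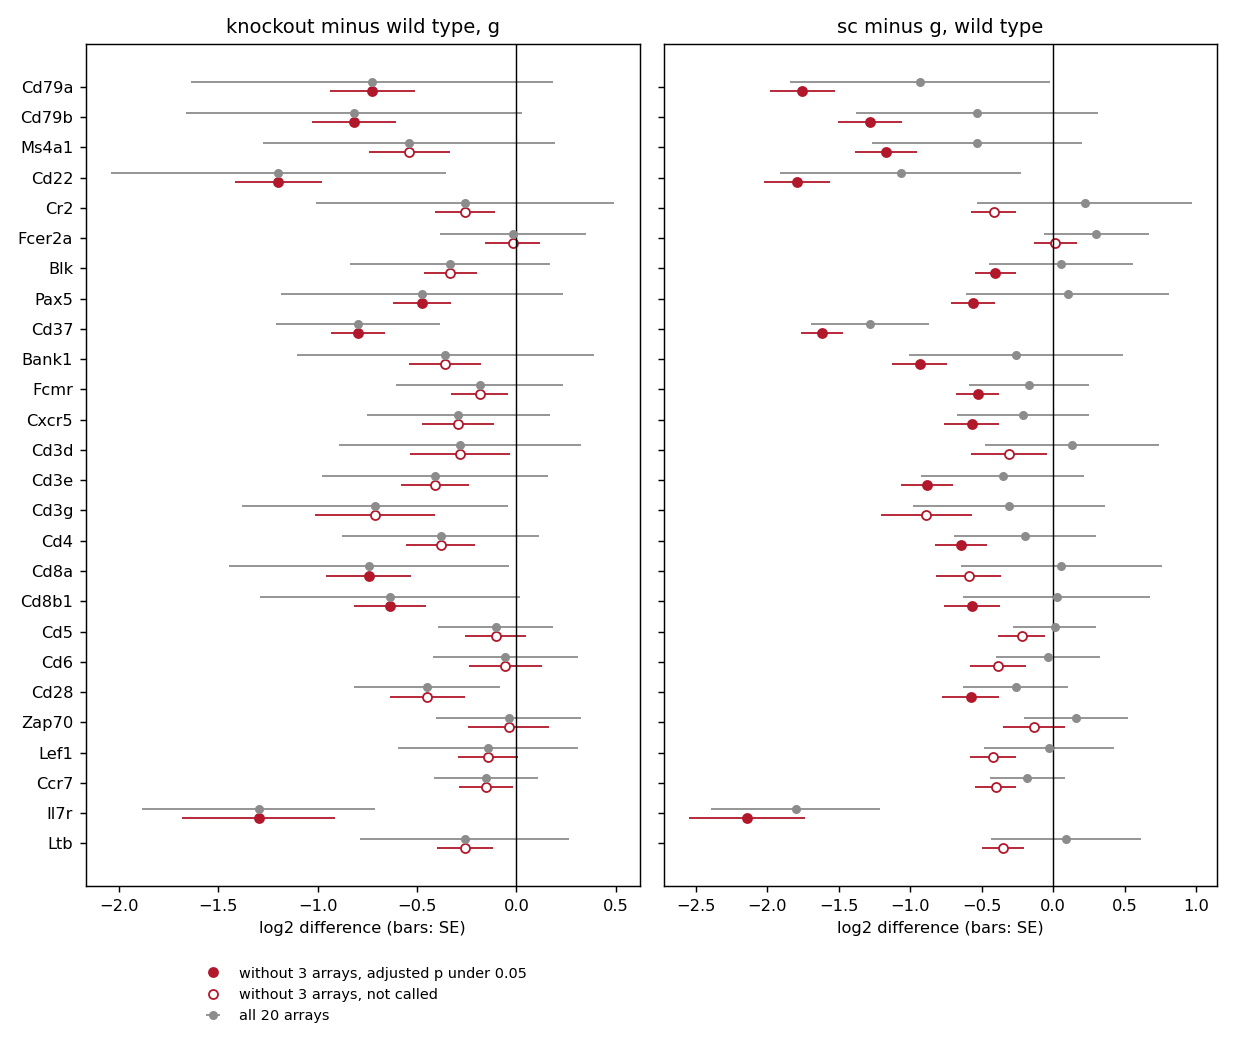
Log2 differences of the 26 members with SE bars, knockout minus wild type in g (left) and sc minus g in wild type (right), with all 20 arrays in grey and without sc317KO, sc320KO and sc286WT in red, filled where the adjusted p is under 0.05. On the left the differences coincide and the bars shorten, with 8 filled; on the right most move down, with 15 filled, after arrays chosen by these genes' own levels were left out.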

How the data were processed

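The authors deposited log2 signals, 1 per probe, made with RMA and limma per the submitters' processing notes; their versions and the array build are not stated. Of 28846 probes 6640 controls were left out. Of the other 22206, 19572 carry 1 gene symbol, 0 carry several and 2634 none here. Where a gene had more than 1 probe (55 genes) the brightest on average was kept, leaving 19505 genes. Tests used limma 3.58.1 in R 4.3.3 (4 group means, 16 residual degrees of freedom, moderated two-sided p, Benjamini-Hochberg over all genes, called under 0.05). The number of arrays limits precision. The 29 members, gene lists, named genes and the 3 arrays left out were chosen with earlier results of these data known; values on every array are given for Cd79a, Ms4a1, Cd3e, Cd8a, Ccr7, Ltb and the members called with all arrays, and Cd22 was added after its values were seen. The fit was tested on simulated data. The titles share numbers between depots, which the labels do not state to be 1 mouse, so no block was used. Residuals of same-numbered arrays correlated at -0.461 to 0.142 (median 0.0111). Single arrays carry high lymphocyte, hepatocyte or muscle signals, so these correlations cannot show whether equal numbers mark 1 mouse. Alternatives were another spread estimate, other groups, filters, probes, scaling, array weights, a replicate block and arrays left out. The design text names PKP2 beside sc, while every label gives Olfm2; the labels were used. Promoter windows came from RefSeq tables.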

Additional observations from a re-analysis of the deposited data

Results flagged for a closer look

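Single arrays stood apart within their group in 32 of 116 tests of 5 arrays, over 26 members and 3 list means. Chance flags about 1 in 20 groups, and members that move together are not independent tests. The value given is the gap to the nearest array as a share of the group's range, which had to exceed 0.71.

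On sc286WT the wild-type sc group was drawn upward in 27 of these. That array was singled out by these members' own levels, so its flags restate that choice and cannot be set against chance. Among B cell members the shares were Cd79a 0.835, Cd79b 0.894, Ms4a1 0.913, Cd22 0.922, Cr2 0.919, Fcer2a 0.829, Blk 0.826, Pax5 0.888, Cd37 0.776, Bank1 0.859, Fcmr 0.82, Cxcr5 0.826. Among T cell members they were Cd3d 0.759, Cd3e 0.887, Cd3g 0.762, Cd4 0.745, Cd8a 0.804, Cd8b1 0.912, Cd5 0.893, Cd6 0.772, Cd28 0.869, Lef1 0.738. Among genes of both lineages they were Il7r 0.756, Ltb 0.831. For the list means they were 0.951 for B cell members, 0.857 for T cell members and 0.841 for genes of both lineages. The knockout sc group, which holds 2 high arrays, had none.

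On g309 WT, the highest of the wild-type g arrays, the shares were 0.724 for the kinase Blk, 0.715 for the receptor chain Cd3e and 0.846 for the transcription factor Lef1. Among knockout g arrays g317 KO was lowest for Pax5 (0.779) and g306 KO for Ltb (0.738).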

How the results depend on the processing

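The counts of members called are compared here. In sc knockout against wild type and in the difference of effects every alternative run gave 0. In g knockout against wild type the count of 0 became 2 with only the g arrays in the fit and 8 without sc317KO, sc320KO and sc286WT. In knockout sc against g it became 3 without these arrays. In wild-type sc against g the count of 2 became 0 with a trended, robust spread estimate, 15 without the 3 arrays and 0 without 8 arrays with high hepatocyte genes. Leaving out single arrays gave 0 in each of these comparisons but the last and 0 to 2 there. Without the hepatocyte-high arrays g300 KO was the only knockout g array left, and the Olfm2 difference in g was -0.85. Without single arrays the Olfm2 difference was -0.86 to -0.73 in g and -1.81 to -1.52 in sc.

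Alternatives on the fit without the 3 arrays were chosen after seeing the data. In g the 8 calls became 2 with only the g arrays, 5 with array weights and 3 to 9 without single arrays. The sc against g counts without single arrays were 2 to 4 in knockout and 10 to 17 in wild-type mice, and 0 in sc knockout against wild type. With the title number as a replicate block the counts with all arrays were 0, 0, 0, 0 and 2, as without it. Without the 3 arrays the block gave 0 in sc and 8 in g for the knockout, and 4 and 18 for sc against g in knockout and wild-type mice; 3 of 10 numbers matched their own best. Dim signal limits small differences: up to 6 members lay below the negative control median on 1 array.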

Other observations

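Dendritic cell genes gave a further pattern among the genes outside the list: 5 of 10 had sc317KO, sc320KO and sc286WT above the other sc arrays, against 7.55% of all genes. Ccl22, a chemokine of mature dendritic cells, had 9.59, 8.43 and 8.61 on these arrays, against 5.91 to 6.65 on other sc arrays and 6.56 to 7.42 on g arrays. Itgax, the integrin chain CD11c, had 5.81, 5.39 and 6.13 there, within the 5.42 to 6.81 of the other sc arrays except on sc320KO, and was highest on wild-type g arrays at 8.57 to 9.47. Klrd1, a receptor of natural killer cells, had 6.56, 6.19 and 5.90, against at most 4.82 elsewhere, while Ncr1, another such receptor, had 5.05, 4.61 and 4.80 and did not stand out. Jchain, which joins secreted immunoglobulin, had 8.80, 8.91 and 9.41 on the 3 arrays, 5.84 to 7.76 on the other sc arrays and 8.17 to 10.4 on g arrays.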
